A study of Bos taurus with 12 samples.

Results

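The intramuscular fat of Japanese Black (JB) cattle was compared with that of Holstein (HS) cattle. The comparison used the samples labelled with 1 of these breeds and with the intramuscular depot, 3 per breed, 6 of the 12 in the series. The remaining 6 samples were subcutaneous fat (SCF) of the same breeds, again 3 per breed, and entered the fit as a shared estimate of the spread and as a second depot beside the first. All 4 groups had been fed an energy-rich ration, per the labels, which give no age, sex or genotype beyond breed. Whether each sample is its own animal, and whether the depots were taken from shared animals, is not stated. The p-values below therefore describe sample-to-sample spread only, part of which may be technical. RNA was read on the Affymetrix bovine array, where a probe set is a group of short probes for 1 transcript. Of its 24128 probe sets 112 were controls and 7205 of the others were left out as dim, and the remaining 16811 were described, among them the transcripts of 7808 named genes.

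Intramuscular fat (IMF) is the adipose tissue that lies inside a muscle and gives beef its marbling. JB is a beef breed known for heavy marbling, and HS is a dairy breed. A piece of this depot holds adipocytes, stromal and vascular cells and pieces of the surrounding muscle. In such bulk tissue, fewer cells of a type and less RNA per cell cannot be told apart.

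The defining markers of fat and of muscle were both present in all 6 samples. The summed deposited signal of 6 adipocyte markers (FABP4, CIDEC, LIPE, LPL, LEP and ADIPOQ) was 19514 to 44412 in JB and 27822 to 34651 in HS. That of 9 skeletal muscle fibre markers was 67470 to 94839 in JB and 44885 to 85532 in HS, against 4351 to 23427 in SCF. The 2 breeds overlapped in both sums. The sum of 6 smooth muscle and pericyte markers (ACTA2, MYH11, TAGLN, CNN1, RGS5 and SMTN) was 28254 to 56472 in JB and 10499 to 27611 in HS, with no overlap and with HS IMF 3 lowest. The lowest JB and the highest HS sum lay close together. These sums were not normalized here, and the median signal of the arrays was 84.3 to 87.7 in JB IMF and 58.8 to 82.5 in HS IMF. A pair of smaller sums was also apart or nearly so, that of S100B and SOX10, listed as Schwann cell markers, at 3048 to 5218 in JB and 1316 to 2256 in HS, and that of 6 erythroid markers at 347 to 528 in JB and 516 to 824 in HS. The 5 endothelial markers summed to 4171 to 7210 in JB and 2678 to 6117 in HS, the 4 macrophage markers to 993 to 3313 and 1062 to 1506, and the 5 lymphocyte markers to 224 to 322 and 291 to 312. Nearly all of the sum of S100B and SOX10 was S100B, which fat cells also make, and SOX10 alone had the opposite sign (−0.57 ± 0.28). No marker was at 0 in all 6 samples.

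HS IMF 3 stood apart from the other intramuscular samples. Its median deposited signal was 58.8, against 77.6 to 88.3 in the other 11 samples of the series. After quantile normalization, which gives every array the same distribution of values, 1466 probe sets were over 2-fold above all of the other 5 intramuscular samples in HS IMF 3 and 910 were over 2-fold below them. The same counts were 493 and 149 in HS IMF 2 and at most 87 and 61 in the remaining 4. The median within-group SD of a probe set was 0.23 log2 units in JB IMF and 0.52 in HS IMF, or 0.33 with HS IMF 3 left out. The difference of a gene is therefore also given without HS IMF 3 where leaving it out moved the value by over 1.5 times, and the plot of the gene lists shows each list's median without it. With 3 arrays in a group, their number sets the precision.

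All values by sample below are quantile-normalized signals, and all differences are JB minus HS on the scale of log2(signal + 16), on which 1 unit is a doubling of signal + 16 and the change of dim genes is understated. Folds, also those above, are ratios of signal + 16, so they are smaller than the ratios of the signals themselves. The median difference over all tested probe sets was 0.10, and it was 0.38 in the values as deposited. A difference near the median of its own scale therefore lies in the middle of all probe sets. Probe sets passed at an adjusted p below 0.05 by limma with Benjamini-Hochberg adjustment over all 16811.

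In all, 4 probe sets differed between the breeds in IMF, 3 higher in JB (0.0178% of those tested) and 1 lower (0.00595%). The higher ones read PDE4DIP, ASIP and LTBP2, and the lower one read NNAT. Each of them separated all 3 JB from all 3 HS samples, a pattern that 7.31% of all tested probe sets showed with JB above and 6.5% with JB below.

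PDE4DIP encodes myomegalin, a scaffold protein of the Golgi apparatus and centrosome that binds a cAMP phosphodiesterase. Its probe set read 329, 347 and 734 in JB IMF and 45.8, 45.4 and 59.2 in HS IMF. The HS values lay close together and JB IMF 3 was the highest. The difference was 2.79 ± 0.29 (SE of the fit to all 12 samples, 3 per group), 6.91-fold, at adjusted p = 0.00801 by limma. In SCF the same probe set read 52.2, 51.6 and 56.5 in JB and 51.9, 42.5 and 52.9 in HS, so that the JB intramuscular samples were the high ones among all 12. The other probe sets of the gene did not all behave alike. A second one read 635, 324 and 566 in JB and 146, 168 and 137 in HS, a difference of 1.60 ± 0.32 that did not pass (adjusted p = 0.418, limma). The brightest, at 630, 529 and 517 in JB and 797, 884 and 1446 in HS, had the opposite sign, −0.84 ± 0.28 (adjusted p = 0.485, limma). The other ones differed by 0.62 ± 0.52 and 0.71 ± 0.36. The statement on PDE4DIP thus holds for 1 of its 5 probe sets, and which transcripts each of them reads was not analysed here.

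ASIP encodes agouti signalling protein, a secreted antagonist of melanocortin receptors best known from pigmentation. It is read by 1 probe set, at 333, 657 and 319 in JB IMF and 26.0, 25.6 and 22.6 in HS IMF. The lowest JB value was far above the highest HS value. The difference was 3.40 ± 0.40 (SE), 10.5-fold (adjusted p = 0.0151, limma). In SCF the values were 433, 695 and 747 in JB and 11.1, 0.303 and 32.4 in HS, a difference of 4.49 (adjusted p = 0.00147, limma). The gene was therefore higher in JB in both depots, and the difference between the depots, −1.10 ± 0.56, did not pass (adjusted p = 0.99, limma). Of the melanocortin receptors, MC1R, the receptor of pigment cells, read 41.9, 45.6 and 49.2 in JB and 53.2, 89.2 and 71.4 in HS, and MC2R, the receptor of the adrenal hormone ACTH, read 95.2, 121 and 81.0 in JB and 101, 174 and 217 in HS. Neither passed (−0.48 ± 0.24 and −0.60 ± 0.35, the latter −0.40 without HS IMF 3).

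LTBP2 encodes an extracellular matrix protein related to the latent TGF-beta binding proteins. Its probe set read 267, 306 and 411 in JB IMF and 63.7, 82.6 and 29.5 in HS IMF. HS IMF 3 was the lowest of the 6, and the groups did not overlap with or without it. The difference was 2.25 ± 0.30 (SE), 4.77-fold (adjusted p = 0.0279, limma), and 1.97 without HS IMF 3 (adjusted p = 0.0496, limma). A brighter probe set of the gene read 419, 241 and 311 in JB and 203, 140 and 75.1 in HS, which also did not overlap, at 1.18 ± 0.36 (adjusted p = 0.485, limma). In SCF the first probe set read 177, 220 and 167 in JB and 76.4, 76.7 and 56.9 in HS, again with no overlap, a difference of 1.24.

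NNAT encodes neuronatin, a small membrane proteolipid, and is imprinted, with the paternal copy active. Its probe set read 106, 67.0 and 44.4 in JB IMF and 935, 539 and 578 in HS IMF. Every JB value was below every HS value, with the largest HS value in HS IMF 1. The gene fell by 3.00 on the log2 scale in JB relative to HS, with an SE of 0.39 (adjusted p = 0.0277, limma). In SCF the order of the breeds was the same, at 273, 214 and 203 in JB and 2440, 870 and 1247 in HS (−2.52, adjusted p = 0.155, limma). A second probe set, left out of the test as dim, read at most 5.22 in JB and 36.6, 28.3 and 4.71 in HS.

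**Figure D1:**
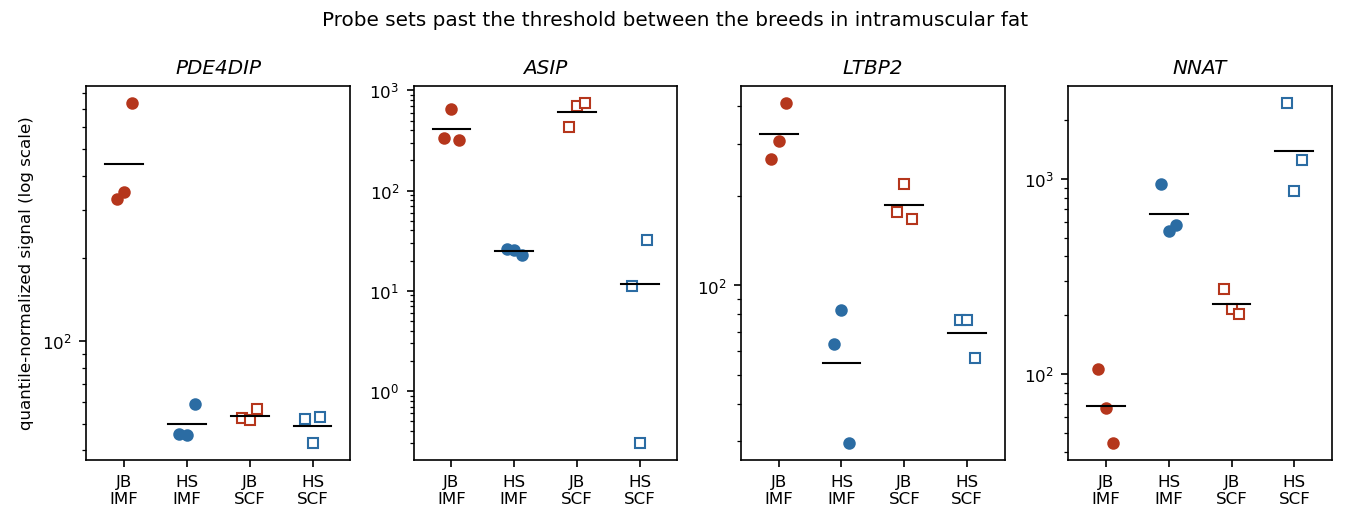
Quantile-normalized signal (log axis, one scale per panel) of the 4 probe sets past the threshold in each of the 12 samples. Red marks are JB and blue marks HS, filled circles are IMF, open squares are SCF, and each line is the back-transformed mean of log2(signal + 16) of 3 samples. PDE4DIP is high in the JB intramuscular samples alone (329 to 734), while ASIP, LTBP2 and NNAT separate the breeds in both depots.

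The count of 4 depended on single samples and on the model. It was 0 without HS IMF 1, 1 without JB IMF 3 and 7 without HS IMF 2. Leaving out JB IMF 2, HS SCF 6 or any of the 3 JB subcutaneous samples gave 2 each. It was also 0 with array weights or with only the 6 intramuscular samples in the fit. Without HS IMF 3 the differences of ASIP and NNAT were 3.42 and −3.14, at adjusted p = 0.0689 and 0.0779 by limma, and that of PDE4DIP was 2.93 (adjusted p = 0.0204, limma). The count was then 3, with PDE4DIP, LTBP2 and ART3, an ADP-ribosyltransferase named after its values were seen. ART3 read 3108, 760 and 1283 in JB and 57.7, 81.7 and 886 in HS, so that HS IMF 3 alone lay within the JB range, and its difference was 2.97 ± 0.77 with that sample and 4.14 without it. At an unadjusted p below 0.05 there were 796 probe sets with higher values in JB (4.73%) and 924 with lower values (5.5%), 1720 in all, and 1054 without HS IMF 3. With no difference in any probe set 841 would be expected, a yardstick and not a test.

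**Figure D2:**
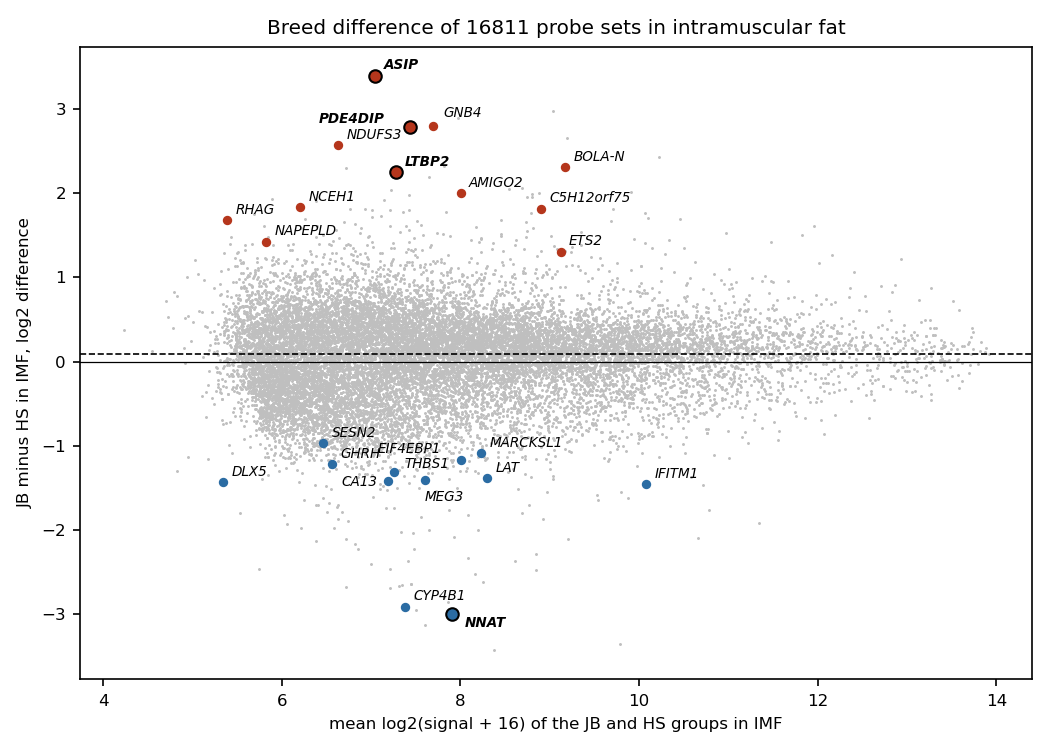
Difference between JB and HS in IMF (log2) against the mean level in IMF (log2(signal + 16)) for all 16811 tested probe sets. Labelled points are the 12 genes with the smallest p in each direction whose samples did not overlap, large points with a black edge are the 4 that passed, and the dashed line is the median of all probe sets at 0.10.

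The next genes by p were taken to 12 in each direction, among named genes whose 3 JB and 3 HS intramuscular values did not overlap. They were chosen for their difference, so the values that follow describe them and test nothing. Apart from the 4 above, 0 passed, at adjusted p of 0.0573 for NDUFS3 and 0.399 to 0.485 for the others by limma.

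NDUFS3, a core subunit of respiratory complex I, came closest. Its probe set read 220, 213 and 247 in JB and 35.9, 36.1 and 8.92 in HS (2.57 ± 0.38, and 2.27 without HS IMF 3). The 3 JB values were nearly equal and the lowest of the 3 HS values was that of HS IMF 3. Its brighter probe set read 1347, 1355 and 1341 in JB and 1224, 552 and 1605 in HS, which overlapped (0.38 ± 0.40, and 0.69 without HS IMF 3). The other members of the respiratory chain are given with their list below.

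GNB4, a beta subunit of heterotrimeric G proteins, read 369, 657 and 616 in JB and 67.2, 175 and 14.3 in HS, with HS IMF 3 lowest (2.80 ± 0.54, and 2.15 without HS IMF 3). AMIGO2, a transmembrane adhesion protein with leucine-rich repeats, read 509, 275 and 872 in JB and 188, 101 and 72.5 in HS (2.00 ± 0.39), and its other probe set differed by 1.48 ± 0.46 with overlap. ETS2, a transcription factor downstream of Ras and MAP kinase, read 995, 543 and 1177 in JB and 404, 234 and 406 in HS (1.31 ± 0.31). That every JB sample was above every HS sample in these 3 genes follows from the rule that chose them.

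NCEH1, which hydrolyses cholesteryl esters, read 116, 107 and 149 in JB and 25.9, 32.2 and 13.2 in HS (1.84 ± 0.37), and its brighter probe set differed by 0.74 ± 0.38 with overlap. NAPEPLD, the phospholipase that releases N-acylethanolamines, read 85.8, 54.6 and 94.9 in JB and 18.7, 37.9 and 5.94 in HS (1.43 ± 0.33). The remaining genes above HS in JB were BOLA-N, an MHC class I gene (1057, 988 and 1969 against 377, 141 and 267, 2.31 ± 0.50), RHAG, the Rh-associated glycoprotein of the red cell membrane (21.7, 82.5 and 97.4 against 3.37, 7.82 and 11.6, 1.68 ± 0.38), and C5H12orf75 (1271, 443 and 1213 against 363, 258 and 143, 1.82 ± 0.40). BOLA-N has close relatives among the class I genes, so its probe set may read more than 1 gene.

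Among the genes with lower values in JB, CYP4B1, a cytochrome P450 that oxidizes fatty acids and foreign compounds, had the largest difference after NNAT. It read 48.0, 42.0 and 44.5 in JB and 839, 624 and 157 in HS (−2.91 ± 0.77). The JB values were nearly equal and HS IMF 3 was the lowest HS sample, so that the difference was −3.66 without it. DLX5, a homeobox transcription factor of bone and limb, read 7.71, 15.3 and 4.55 in JB and 37.8, 43.1 and 77.2 in HS (−1.43 ± 0.26). Both genes separated the breeds in SCF as well.

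EIF4EBP1, the repressor of cap-dependent translation that mTORC1 inactivates, read 119, 190 and 166 in JB and 473, 269 and 391 in HS (−1.16 ± 0.29). SESN2, a stress-induced inhibitor of mTORC1, read 48.3, 49.0 and 44.1 in JB and 95.9, 119 and 108 in HS (−0.97 ± 0.20), while its brightest probe set had the opposite sign (0.36 ± 0.25, and 0.17 without HS IMF 3). GHRH, the hypothalamic releasing hormone of growth hormone, read 29.9, 54.0 and 57.6 in JB and 177, 114 and 102 in HS (−1.22 ± 0.28). In the RefSeq order of protein-coding genes GHRH lies 4 places from NNAT. Of the genes between and next to them that were measured, MANBAL differed by 0.33 ± 0.32, BLCAP by 0.03 ± 0.27 (0.12 without HS IMF 3) and CTNNBL1, on the other side, by −0.54 ± 0.44.

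MEG3, a maternally expressed long non-coding RNA and like NNAT an imprinted gene, read 119, 57.6 and 154 in JB and 301, 207 and 427 in HS on the probe set that differed most clearly (−1.40 ± 0.36). Its other 4 probe sets overlapped between the breeds, at −1.01, −0.82, −0.60 and −0.14, and at −1.68, −0.40, −1.44 and −0.81 without HS IMF 3. LAT, the adaptor of T cell receptor signalling, read 148, 221 and 176 in JB and 351, 518 and 656 in HS (−1.38 ± 0.34), with its other probe sets at −0.85 and −0.14 (−0.41 and −0.48 without HS IMF 3). THBS1, the matrix protein thrombospondin 1, read 77.8, 94.3 and 72.5 in JB and 173, 283 and 231 in HS (−1.31 ± 0.28), but its brightest probe set, at 7315 to 12164 in JB and 4008 to 13171 in HS, differed by 0.28 ± 0.48, and by −0.15 without HS IMF 3. For MEG3 and LAT all tested probe sets thus shared a sign, and for THBS1 and SESN2 they did not.

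The last of the 12 were CA13, a cytosolic carbonic anhydrase (73.6, 95.8 and 54.3 in JB and 140, 208 and 370 in HS, −1.42 ± 0.34), IFITM1, an interferon-induced membrane protein (630, 1001 and 409 and 1902, 1211 and 2436, −1.46 ± 0.35), and MARCKSL1, an actin-binding protein of the MARCKS family (153, 188 and 239 and 367, 497 and 411, −1.08 ± 0.28). IFITM1 belongs to a family of near-identical genes, and its probe set may read a relative. HS IMF 3 was the highest of the 6 samples for DLX5, CA13, IFITM1, LAT and MEG3, whose differences without it lay between −1.10 and −1.22.

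**Figure D3:**
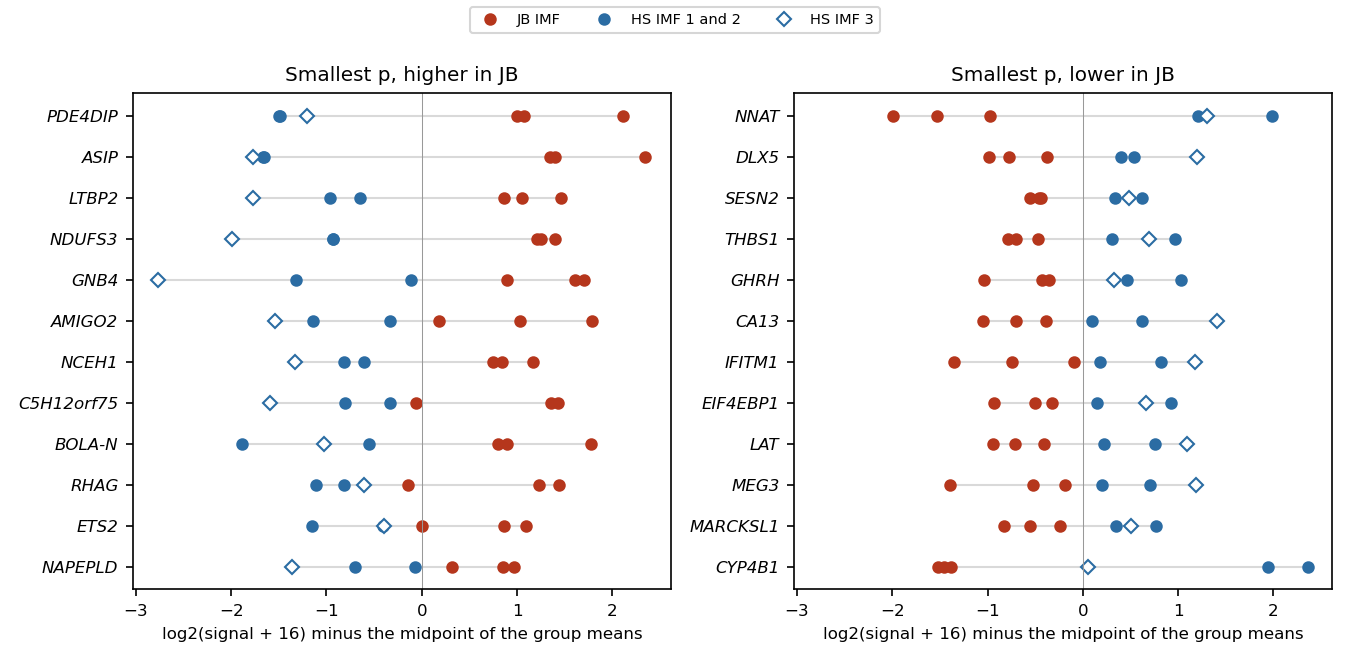
Log2(signal + 16) of the 6 intramuscular samples for the 12 genes with the smallest p in each direction, drawn relative to the midpoint of the 2 group means. Red circles are JB, blue circles are HS IMF 1 and 2, and open diamonds are HS IMF 3. The breeds do not overlap in any row, which is how the genes were chosen. HS IMF 3 is the HS sample furthest from JB for ASIP, LTBP2, NDUFS3, GNB4, AMIGO2, NCEH1, C5H12orf75 and NAPEPLD. The same holds for DLX5, CA13, IFITM1, LAT and MEG3.

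Named genes were next described in 35 lists by role, each gene through its brightest tested probe set. Over all 7808 named genes the difference was positive for 4693 (60.1%), the median was 0.11, and 2 genes, ASIP and NNAT, passed (0.0256%). At an unadjusted p below 0.05 there were 322 positive (4.12%) and 332 negative ones (4.25%). A list median is therefore read against 0.11. In the values as deposited the all-gene median was 0.41, and some list medians below are also given relative to the median of all genes. That relative median kept its sign in all 10 other settings for 14 of the 35 lists. No member of a list passed by limma with Benjamini-Hochberg adjustment except ASIP and NNAT in theirs, and every value below is a description.

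The lists of fat metabolism lay near the median of all genes, with cholesterol genes above it and adipocyte genes below it. Of 19 measured genes of cholesterol synthesis and uptake 15 were positive, with a median of 0.55. SQLE, which makes squalene epoxide, read 205, 204 and 219 in JB and 230, 73.7 and 72.9 in HS (0.85 ± 0.39), and FDFT1, squalene synthase, read 353, 427 and 403 in JB and 356, 223 and 230 in HS (0.55 ± 0.25). In both, HS IMF 1 was level with JB and the other HS samples were low. DHCR7, which makes cholesterol in the last step, differed by 0.71 ± 0.35, while INSIG1, the sterol-dependent brake on this pathway, read 463, 951 and 357 in JB and 1626, 727 and 733 in HS (−0.80 ± 0.38). The median of the list was 0.17 without HS IMF 3, when that of all genes was 0.04, and −0.06 in SCF.

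Of 19 genes of adipocyte identity 14 were negative, with a median of −0.22. ADRB3, the beta-3 adrenergic receptor that starts lipolysis, read 152, 211 and 141 in JB and 241, 337 and 747 in HS (−1.18 ± 0.37, and −0.74 without HS IMF 3). LPL, the lipase that frees fatty acids from lipoproteins, read 2918, 5889 and 2036 in JB and 6831, 6385 and 3424 in HS (−0.69 ± 0.43). Only ADRB3 separated the breeds. Relative to all genes the median was −0.32. On that relative scale it was 0.19 without JB IMF 3 and −0.76 without JB IMF 2, so the position of this list rested on single samples. The mean log2 level of the list was 9.51 to 11.3 in the JB samples, a range that enclosed the 10.5 to 10.8 in HS.

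Fatty acid synthesis had 15 of 22 positive genes (median 0.16), fatty acid uptake 8 of 12 (0.07), triacylglycerol synthesis 10 of 19 (0.09) and lipid droplets and lipolysis 8 of 17 (−0.03). Relative to all genes these medians were 0.05, −0.04, −0.01 and −0.13. On that scale the first was −0.29 without JB IMF 2, and the others were 0.08, 0.18 and 0.18 without JB IMF 3. Within these lists, GK, glycerol kinase, read 52.0, 57.7 and 36.8 in JB and 20.6, 19.8 and 10.4 in HS (0.98 ± 0.39). ACSL3, which activates long-chain fatty acids, read 802, 348 and 217 in JB and 184, 158 and 155 in HS (1.18 ± 0.53), and ABHD5, the co-activator of adipose triglyceride lipase, read 200, 112 and 37.2 in JB and 29.5, 26.7 and 25.4 in HS (1.40 ± 0.58). The JB samples were above HS in all 3, and spread widely for ABHD5. PLIN5, a lipid droplet protein of oxidative tissue, overlapped (0.67 ± 0.44). On the negative side, AGPAT4, an acyltransferase of the glycerolipid pathway, read 29.4, 27.8 and 38.4 in JB and 38.0, 57.8 and 77.0 in HS (−0.59 ± 0.27), with JB IMF 3 just above HS IMF 1. ADRA2A, the alpha-2A adrenergic receptor that restrains lipolysis, also overlapped (−0.51 ± 0.28, and −0.23 without HS IMF 3). Of the 19 triacylglycerol genes 2 had every JB sample above HS and 2 every JB sample below. Over all 7808 named genes the same counts were 595 and 429.

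Fatty acid oxidation had 17 of 24 positive genes (median 0.22, or 0.11 relative to all genes and −0.09 on that scale without JB IMF 2). PPARA, the nuclear receptor that drives this pathway, read 90.3, 64.7 and 54.3 in JB and 32.9, 37.6 and 29.4 in HS (0.78 ± 0.28), and UCP3, the uncoupling protein of muscle mitochondria, read 2835, 1463 and 2053 in JB and 634, 1084 and 1736 in HS (0.93 ± 0.41). PPARA separated the breeds and UCP3 did not. The respiratory chain had 40 of 57 positive genes (median 0.17, or 0.07 relative to all genes and −0.11 on that scale without HS IMF 2). Of these, NDUFA1, a small subunit of complex I, read 5989, 7031 and 5889 in JB and 5165, 4673 and 4409 in HS (0.41 ± 0.22). For glucose uptake and glycolysis the median was 0.03 over 26 genes. INSR, the insulin receptor, differed by −0.85 ± 0.39 and by −0.36 without HS IMF 3, and PKM, pyruvate kinase, read 641, 713 and 589 in JB and 899, 758 and 1499 in HS (−0.63 ± 0.33, and −0.35 without HS IMF 3). The transcription regulators of fat cells had 11 of 23 positive (median −0.05), with KLF15 at 0.59 ± 0.33, TCF7L2 at 1.13 ± 0.67 and NR1H3, the liver X receptor alpha, at −1.08 ± 0.51 (−0.41 without HS IMF 3), each with overlap.

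In the vessel wall, of 16 smooth muscle and pericyte genes 14 were positive, with a median of 0.52, and of 0.23 without HS IMF 3. SMTN, a smooth muscle cytoskeletal protein, read 1375, 1065 and 2906 in JB and 1031, 402 and 465 in HS (1.46 ± 0.41), and ACTA2, smooth muscle actin, read 14090, 10094 and 16662 in JB and 9222, 7360 and 5576 in HS (0.88 ± 0.41). RGS5, which marks pericytes and dampens G protein signals, read 2742, 1485 and 5165 in JB and 2701, 94.8 and 440 in HS (2.43 ± 0.85), so that HS IMF 1 was within the JB range. NDUFA4L2, a mitochondrial protein of pericytes, went the other way at 59.2, 92.2 and 63.4 in JB and 96.1, 120 and 175 in HS (−0.72 ± 0.25). SMTN, ACTA2 and RGS5 are 3 of the 6 markers summed above, so that sum is no separate observation, and the part of vessel wall cells in the breed difference of other genes was not tested.

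Of 50 matrix genes 36 were positive, with a median of 0.26 that was 0.01 without HS IMF 3. ASPN, the small proteoglycan asporin, read 357, 146 and 451 in JB and 61.5, 145 and 39.7 in HS (1.78 ± 0.43), with JB IMF 2 and HS IMF 2 nearly level. COL18A1, a basement membrane collagen, read 84.4, 186 and 139 in JB and 77.7, 36.9 and 37.2 in HS (1.19 ± 0.36). The fibrillar collagen gene COL1A1 lay on the other side, at 674, 1079 and 1147 in JB and 2776, 1846 and 6511 in HS (−1.76 ± 0.67, and −1.23 without HS IMF 3), as did COL5A3 (−1.03 ± 0.38). In the TGF-beta family, where LTBP2 stands at 1.18 through its brightest probe set, 14 of 29 were positive and the median was −0.06. TGFB3, 1 of the TGF-beta ligands, read 655, 457 and 1345 in JB and 449, 154 and 335 in HS (1.32 ± 0.44), and BMPR1A, a type I receptor of bone morphogenetic proteins, read 233, 185 and 269 in JB and 185, 146 and 65.3 in HS (0.81 ± 0.37, and 0.44 without HS IMF 3, the lowest sample).

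Of 26 stromal progenitor genes 17 were positive (median 0.27, and −0.01 without HS IMF 3). THY1, a stromal surface protein, read 122, 106 and 136 in JB and 53.5, 58.9 and 94.2 in HS (0.72 ± 0.31), and CLEC3B, tetranectin, read 1513, 2005 and 1707 in JB and 4397, 2534 and 2671 in HS (−0.83 ± 0.36). The endothelial list had 17 of 22 negative genes, a median of −0.22 and of −0.39 without HS IMF 3. Its member with the smallest p was EGFL7, a secreted endothelial factor, at 457, 654 and 740 in JB and 1163, 1038 and 791 in HS (−0.69 ± 0.30). S100B, a calcium-binding protein of Schwann cells that fat cells also make, read 3237, 5305 and 2911 in JB and 1631, 2277 and 1829 in HS (0.95 ± 0.28), whereas SOX10, the transcription factor of Schwann cells, and ERBB3, their neuregulin receptor, were at −0.57 ± 0.28 and −0.62 ± 0.26, and at −0.23 and −0.34 without HS IMF 3. Over the 9 measured genes of that list the median was −0.16.

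Skeletal muscle fibre genes had 19 of 28 positive and a median of 0.13. Relative to all genes the sign of this median was kept in only 4 of 10 other settings, at −0.34 to 0.21. It also changed in the values as deposited. The myogenic list, of 9 genes, had a median of −0.38 that was 0.04 without HS IMF 3. MYH3 and MYH8, the myosins of developing fibres, read 9222 and 5612 in HS IMF 3 and at most 763 and 350 in the other 5 samples. MYOG, the transcription factor myogenin, was at 843 in that sample, and the other 5 ranged from 40.5 to 78.2.

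**Figure D4:**
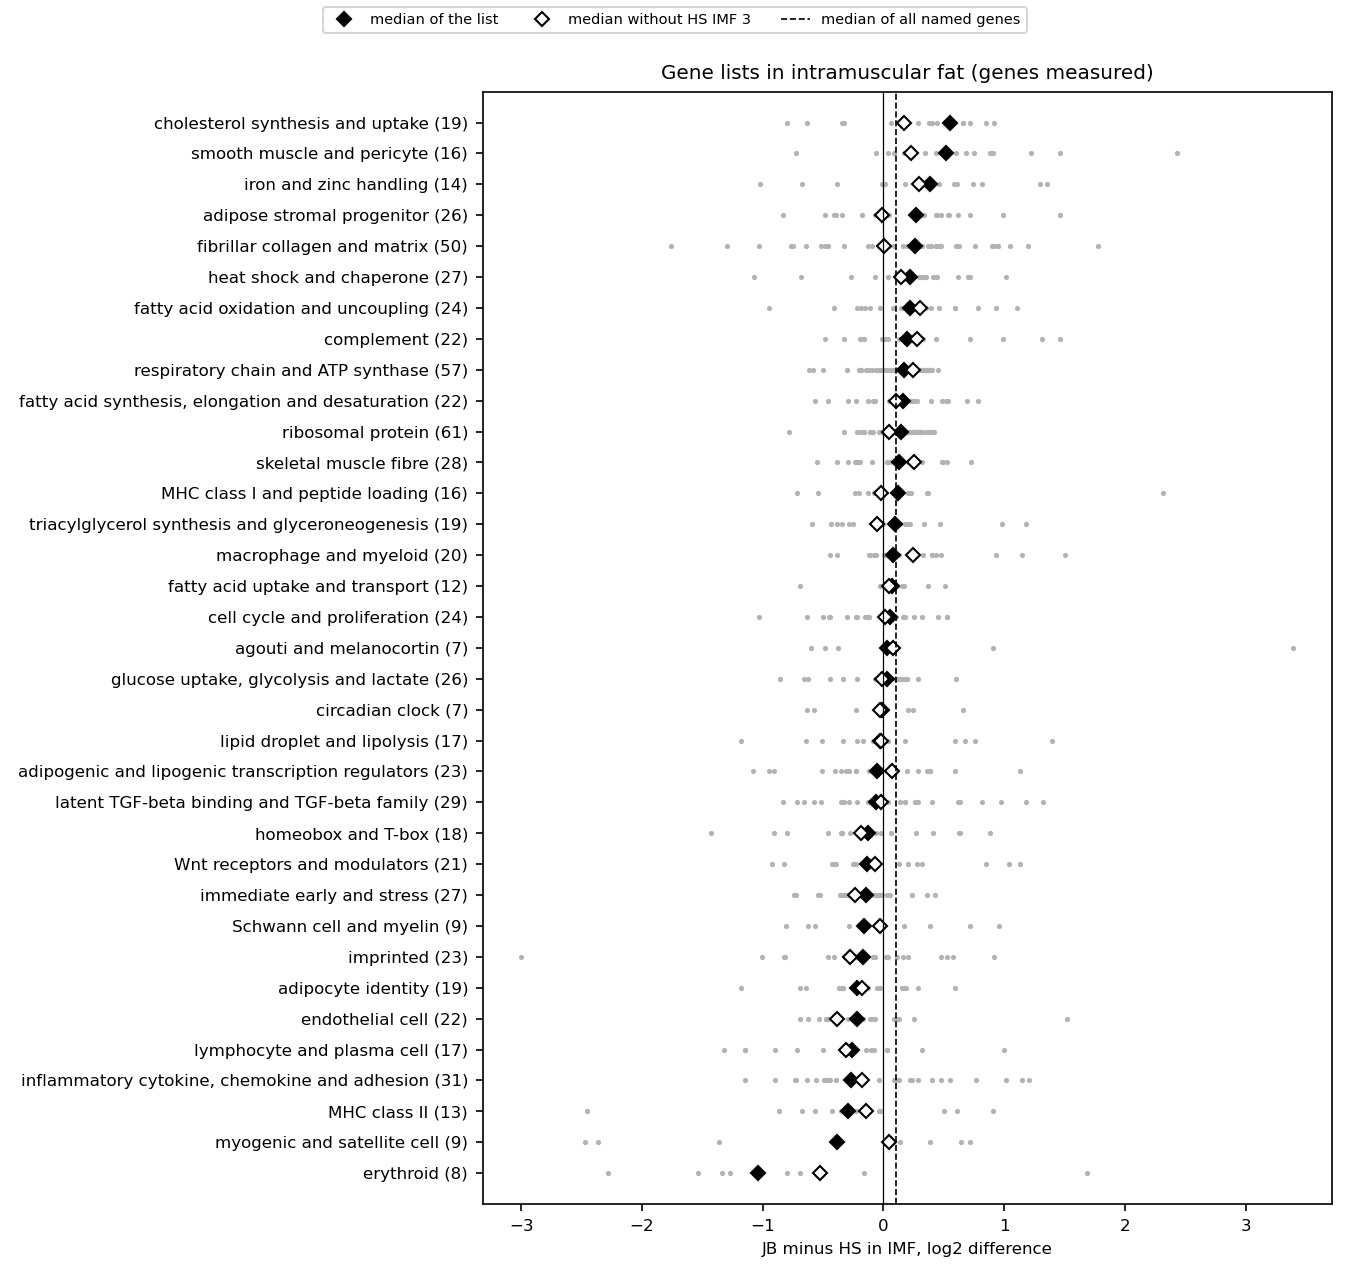
Difference between JB and HS in IMF (log2) of every measured member (grey points) of the 35 gene lists, with the number measured in brackets. Filled diamonds are list medians, open diamonds are the medians without HS IMF 3, and the dashed line is the median of all named genes at 0.11. The cholesterol (0.55) and smooth muscle (0.52) medians lie furthest to the right and the erythroid median (−1.04) furthest to the left, and all 3 are nearer the dashed line without HS IMF 3.

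The erythroid, lymphocyte, MHC class II and cytokine lists had more negative than positive members. Of 8 erythroid genes 7 were negative, with a median of −1.04, and of −0.53 without HS IMF 3. HBB, beta globin, read 74.0, 120 and 141 in JB and 450, 175 and 507 in HS (−1.53 ± 0.66), HBE1, an embryonic globin, read 58.7, 58.9 and 78.0 in JB and 117, 126 and 436 in HS (−1.34 ± 0.41), and HBM differed by −1.27 ± 0.51. Without HS IMF 3 the differences of HBE1 and HBM were −0.79 and −0.53. Globin genes resemble each other, so a probe set may read more than 1 of them. RHAG, given above, was the member on the positive side.

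The lymphocyte list had 13 of 17 negative genes and a median of −0.26. CCL5, a T cell chemokine, read 4.37, 14.7 and 6.51 in JB and 46.3, 29.1 and 38.8 in HS (−1.15 ± 0.48), and CD28, the T cell co-stimulatory receptor, differed by −1.15 ± 0.52 and by −0.46 without HS IMF 3. Of 13 MHC class II genes 10 were negative (median −0.30), and BOLA-DQA5 read 1932 in HS IMF 3, while the other 5 samples lay between 4.31 and 19.7. Without HS IMF 3 BOLA-DQA5 was left out as dim, so its place in that count rested on this sample. The list median was then −0.14, when that of all genes was 0.04. Class I genes had 9 of 16 positive and a median of 0.12. Relative to all genes it was 0.01, a sign kept in only 3 of 10 other settings. Of 31 cytokine, chemokine and adhesion genes 18 were negative (median −0.27). CCL3, a macrophage chemokine, read 147, 183 and 160 in JB and 263, 298 and 409 in HS (−0.90 ± 0.25), and SELP, the P-selectin of platelets and endothelium, read 104, 155 and 196 in JB and 354, 247 and 188 in HS (−0.73 ± 0.31). CXCL2 and IL6 stood on the positive side (1.20 ± 0.47 and 1.02 ± 0.41, the latter 0.66 without HS IMF 3). In SCF the median of this list was 0.49.

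Complement genes had 16 of 22 positive (median 0.19, or 0.09 relative to all genes and −0.08 on that scale without JB IMF 2). CD55, a membrane inhibitor of complement, read 512, 200 and 215 in JB and 150, 188 and 21.2 in HS (1.47 ± 0.59, and 0.71 without HS IMF 3), and CFB, complement factor B, read 241, 1293 and 505 in JB and 207, 248 and 180 in HS (1.31 ± 0.61). The macrophage list had a median of 0.08 over 20 genes, or −0.03 relative to all genes, a sign kept in 6 of 10 other settings. VSIG4, a complement receptor of resident macrophages, read 96.0, 198 and 64.5 in JB and 40.3, 56.6 and 51.6 in HS (0.94 ± 0.65), above HS in every JB sample.

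Of 23 imprinted genes 14 were negative, with a median of −0.17. Beside NNAT, GRB10, an inhibitor of insulin receptor signalling, read 41.3, 33.4 and 37.4 in JB and 43.9, 63.5 and 156 in HS (−0.81 ± 0.34, and −0.38 without HS IMF 3), and ASCL2, a basic helix-loop-helix factor, read 49.9, 51.4 and 51.2 in JB and 66.8, 75.8 and 85.4 in HS (−0.46 ± 0.20). NAP1L5, a nucleosome assembly protein, was positive and overlapped (0.92 ± 0.38, and 0.61 without HS IMF 3). Homeobox and T-box genes had 12 of 18 negative (median −0.13), with HOXD10 at −0.91 ± 0.36 (−0.48 without HS IMF 3) beside DLX5, and Wnt genes had 14 of 21 negative (−0.13). AXIN2, a feedback inhibitor and target of Wnt signalling, read 65.2, 44.8 and 66.2 in JB and 70.3, 143 and 149 in HS (−0.83 ± 0.32), and DKK3, a secreted protein of the Dickkopf family, read 2783, 1581 and 3988 in JB and 1628, 1406 and 867 in HS (1.04 ± 0.39).

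Among the remaining lists, heat shock and chaperone genes had 23 of 27 positive (median 0.22), among them DNAJC3 (0.70 ± 0.30) and CHORDC1 (1.01 ± 0.46). Iron and zinc genes had 10 of 14 positive (0.38) with the metallothionein MT3 on the other side (−0.67 ± 0.30, and −0.40 without HS IMF 3). Immediate early and stress genes had 21 of 27 negative (−0.14), against a median of 0.55 in SCF. The circadian list, at −0.01 over 7 genes, held BHLHE40, a repressor of clock transcription, at 781, 962 and 1110 in JB and 1543, 1666 and 1231 in HS (−0.63 ± 0.23). Cell cycle genes had a median of 0.05 over 24 and ribosomal protein genes of 0.15 over 61, of which RPS6 read 11547 to 12164 in JB and 7054 to 10178 in HS (0.40 ± 0.22, and 0.23 without HS IMF 3). Relative to all genes the sign of the ribosomal median changed in the values as deposited.

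To see whether the intramuscular differences were also present under the skin, the difference of the breeds in SCF was set beside that in IMF, and the interaction, the intramuscular minus the subcutaneous difference, was tested in the same fit. No probe set passed the interaction test (0%) by limma with Benjamini-Hochberg adjustment, the lowest adjusted p being 0.40. An unadjusted p below 0.05 was reached by 359 (2.14%), fewer than the 841 expected with no difference in any probe set. This shortfall does not show that the depots agree. No breed difference was therefore shown to be particular to IMF.

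Of the 12 genes with higher values in JB IMF 11 had a positive difference in SCF too, and of the 12 with lower values 11 had a negative one. Their median differences were 2.13 and −1.39 in IMF and 0.71 and −0.46 in SCF, and 10 and 11 of them were smaller there, which their choice by IMF favours. JB and HS did not overlap in either depot for ASIP, LTBP2, GNB4, C5H12orf75, BOLA-N and ETS2 with JB above and for NNAT, DLX5, IFITM1, EIF4EBP1 and CYP4B1 with JB below. Of all 16811 tested probe sets 351 were separated the same way in both depots. EIF4EBP1 had nearly the same difference in both depots, −1.16 and −1.12, and BOLA-N read 1136, 1548 and 2120 in JB SCF and 485, 110 and 177 in HS SCF.

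The smallest p of the interaction was that of PDE4DIP (2.69 ± 0.41, adjusted p = 0.40, limma), followed on the positive side by AMIGO2 (2.18 ± 0.55), a second PDE4DIP probe set (1.77 ± 0.46), MME, the neprilysin gene (2.31 ± 0.64), and NDUFS3 (1.86 ± 0.53). AMIGO2 read 56.5 to 64.2 in JB SCF and 59.9 to 76.5 in HS SCF, against 72.5 to 872 in IMF. MME differed by −0.07 in IMF and by −2.38 in SCF, where it read 10.8, 10.6 and 3.39 in JB and 47.7, 165 and 154 in HS. On the negative side stood MARCKSL1 (−2.24 ± 0.40), RGS16 (−1.77 ± 0.45), ZFP36 (−1.68 ± 0.44), SLC16A3 (−1.60 ± 0.42) and ADAM19 (−1.24 ± 0.34), at adjusted p of 0.92 for MARCKSL1 and 0.99 for the others by limma. RGS16, a regulator of G protein signalling, and ZFP36, which destabilizes mRNAs of cytokines, differed by −0.53 and −0.26 in IMF and by 1.25 and 1.42 in SCF. Leaving out HS IMF 2 gave an interaction count of 1, an unnamed probe set, and leaving out HS SCF 4 also gave 1, SELE, the endothelial adhesion molecule E-selectin, which was named after its values were seen.

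**Figure D5:**
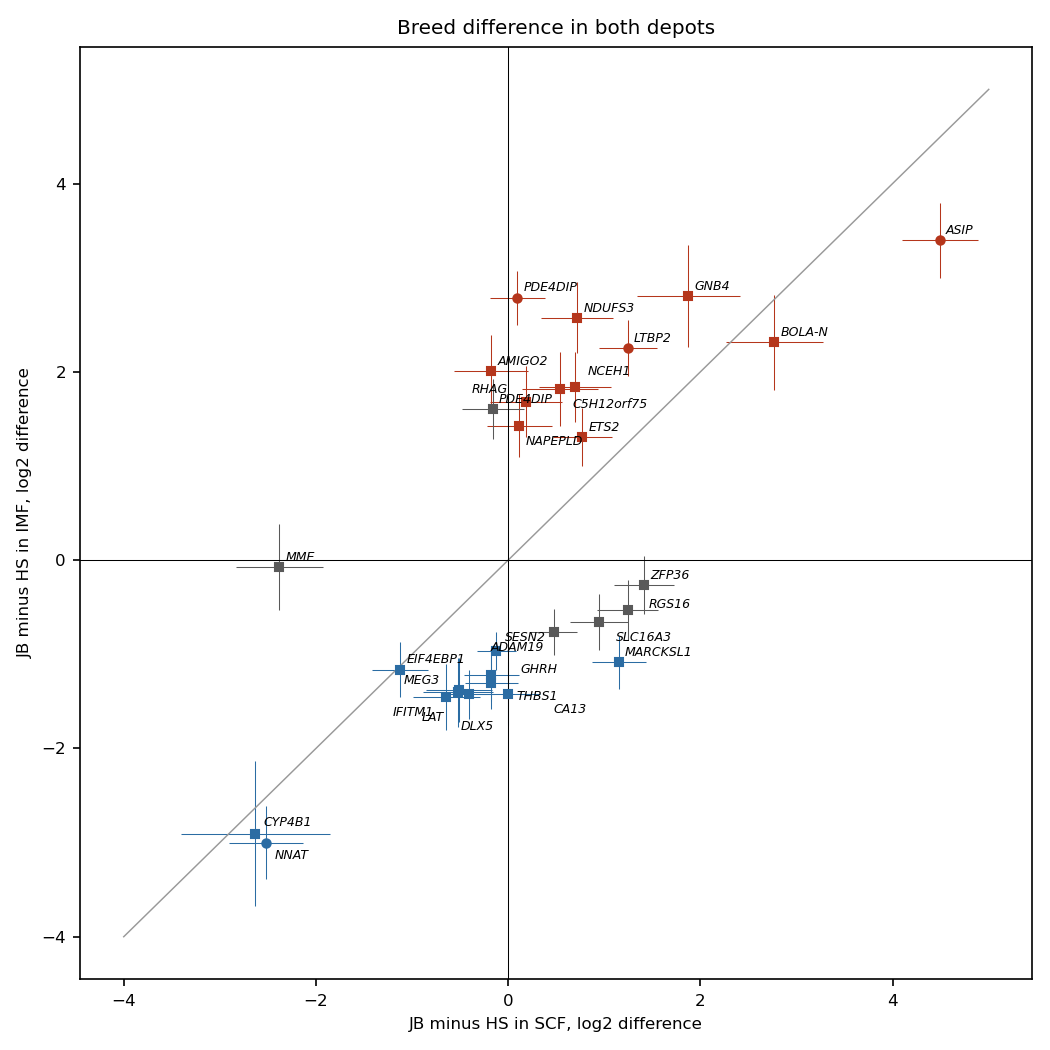
Difference between JB and HS in IMF against that in SCF (both log2), with SE bars, for the genes named by p in IMF (red above, blue below HS) and by p of the interaction (grey). Circles passed in IMF, squares did not, and the line marks equal differences. BOLA-N, NNAT, CYP4B1 and EIF4EBP1 lie near the line, ASIP lies below it, PDE4DIP and AMIGO2 lie near 0 on the subcutaneous axis, and MARCKSL1, SLC16A3 and ADAM19 have opposite signs.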

How the data were processed

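The deposited values were linear probe set intensities of 12 arrays, and none of their columns was left out. Per the submitters' processing notes, GCOS 1.1.1 and Affymetrix Expression Console 1.1 were used. How the intensities were summarized and normalized is not given in the sources used here. From them log2(signal + 16) was computed and quantile normalized over all 24128 probe sets. The 112 controls and the 30% of the others with the lowest mean were left out. Of the 24016 others, 13292 carried 1 symbol, 86 several and 10638 none. Symbols were updated by Entrez identifier (13263 matched), and neighbours come from RefSeq assembly ARS-UCD2.0.

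In R 4.3.3, limma 3.58.1 (lmFit with eBayes) estimated the mean of each of the 4 groups, on 8 residual and 4.05 prior degrees of freedom. P-values had Benjamini-Hochberg adjustment over all tested probe sets of a comparison. The fit was also run on simulated normal data with the same spread in every group and no deviant array. That run therefore says nothing about the effect of HS IMF 3 or of unequal group spreads. Marker sums use deposited intensities, and values by sample are normalized signals, back-transformed. Python 3.11.15 with matplotlib 3.10.9, numpy 2.4.6 and pandas 2.3.3 drew the figures, and jsonlite 2.0.0 read the labels.

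Genes were named by this rule: every probe set past the threshold; the 12 named genes in each direction with the smallest p whose breeds did not overlap; of each list up to 4 members with the smallest p; and the 5 smallest p in each direction of the interaction. The comparison, the members and the lists were chosen with earlier results of these data known.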

Additional observations from a re-analysis of the deposited data

Results flagged for a closer look

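In 3 of the named genes every JB sample lay below every HS sample in IMF and above every HS sample in SCF. MARCKSL1 read 153, 188 and 239 in JB and 367, 497 and 411 in HS in IMF, and 257, 425 and 526 in JB and 184, 161 and 152 in HS in SCF, an interaction of −2.24 ± 0.40. SLC16A3, the lactate exporter MCT4, read 152, 106 and 173 against 298, 176 and 236 in IMF and 129, 135 and 114 against 91.5, 52.9 and 37.1 in SCF (−1.60 ± 0.42). ADAM19, a membrane metalloprotease, read 197, 149 and 255 against 337, 377 and 321 in IMF and 185, 268 and 220 against 148, 143 and 178 in SCF (−1.24 ± 0.34). None of these 3 passed the interaction test, at adjusted p = 0.92, 0.99 and 0.99 (limma, Benjamini-Hochberg over all tested probe sets). Of all 16811 tested probe sets 44 were separated in opposite directions in the depots, and 351 in the same direction.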

How the results depend on the processing

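The 2 counts of probe sets past the threshold and 93 named genes were recomputed under other settings. The count in IMF, 4, was 2 with a pseudocount of 1, 2 with a replicate block, 2 with 1 probe set per gene, 0 with array weights and 0 with only the 6 intramuscular samples in the fit, and 3 to 5 under the 6 other settings. With each of the 12 samples left out in turn it was 0 to 7. The count of the interaction was 0 under all 10 other settings run and 0 to 1 with single samples left out. Sample numbers 1 to 3 are shared by the breeds, but deviations of same-numbered samples correlated at 0.088, 0.12 and −0.040, so the numbers were not taken to pair samples, and the replicate block is given here alone. PDE4DIP passed in 19 of 23 settings, ASIP in 15, NNAT in 11 and LTBP2 in 9. Of the 93 genes 88 kept their sign in every setting that tested them. The exceptions were PDE4DIP (−0.84), SESN2 (0.36) and THBS1 (0.28) through their brightest probe sets, ZFP36 in the values as deposited (0.060), and MME in the values as deposited (0.0066), with array weights (0.090) and with single samples left out (−0.52 to 0.34, positive without HS IMF 1). NDUFS3 passed with 50% left out as dim, in the values as deposited, with median centring and without HS SCF 4. Relative to the median of all genes, 14 of 35 list medians kept their sign in all 10 settings. The cause of these changes was not tested.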

Other observations

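Some genes outside the comparisons above separated the breeds in both depots, and are named here after their values were seen. They were picked from the 351 of 16811 tested probe sets separated the same way in both depots. GHR, the growth hormone receptor, read 481, 1854 and 745 in JB IMF and 119, 447 and 163 in HS IMF (1.99 ± 0.60), and 1196, 1078 and 2583 in JB SCF and 930, 300 and 374 in HS SCF (1.63). GSTO1, a glutathione transferase of the omega class, read 364, 452 and 289 against 232, 37.3 and 159 in IMF (1.52 ± 0.47) and differed by 1.25 in SCF. PSAP, the precursor of the saposins that activate lysosomal lipid hydrolysis, read 163, 111 and 103 against 31.7, 66.1 and 15.8 in IMF (1.48 ± 0.39) and differed by 0.90 in SCF. NR0B1, an orphan nuclear receptor, lay below HS, at 255, 283 and 229 against 570, 484 and 408 in IMF (−0.88 ± 0.27) and by −1.20 in SCF. None of the 4 passed in IMF (adjusted p = 0.485, limma).

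HS IMF 3 and HS SCF 6 shared a pattern over MHC class II DQ genes. One BOLA-DQB1 probe set read 18798 in HS IMF 3 and 28025 in HS SCF 6 and at most 139 in the other 10 samples, while another of the same gene read 4.05 and 3.07 in them and at least 123 in the others. BOLA-DQA5 read 1932 and 3970 against at most 26.9, and BOLA-DQA2 read 14.5 and 11.9 against at least 203. The labels do not say whether these samples come from 1 animal. CXCL14, a chemokine, was also lowest in these 2 samples, at 67.1 in HS IMF 3 and 194 in HS SCF 6 against 457 to 1196 in the other 10. VPS50 stood apart in HS IMF 3 alone, at 1579 against 26.1 to 49.5 in the other 11.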
